A study of Homo sapiens with 9 samples.

Results

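The BCL2 family is the set of proteins that decides whether the outer mitochondrial membrane is opened during apoptosis. The genes examined were BCL2A1, BCL2, BCL2L1, BCL2L2, MCL1, BAX, BAK1, BID, BBC3 and PMAIP1, 10 in all, of 19775 genes on the array that had a probe set naming exactly 1 gene. Of these 10, 9 genes had such probe sets, 25 probe sets in total. BBC3 (PUMA) was read by a probe set that also names 2 microRNA genes, so no BBC3 value is given. The genes were selected on their family membership and with results of these same arrays in view: BCL2A1 was already known to read lower after Nrf2 siRNA than in both controls, and BAX lower than in mock. Levels and differences of the 9 genes are therefore a description, without a test.

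The cells were A549, an established human lung adenocarcinoma line known for high basal activity of NRF2, the transcription factor of the antioxidant response. They were mock transfected (Lipofectamine 2000 alone), or received a non-targeting siRNA (NS siRNA) or an siRNA against NRF2 (Nrf2 siRNA), each siRNA at 25 nM, and RNA was taken 96 h later. Every group held 3 biological replicates, which gave 9 arrays. There was 1 Nrf2 siRNA group and no rescue, so loss of NRF2 and an off-target effect of that siRNA cannot be told apart. All values are log2 levels deposited by the authors after RMA, a procedure that normalizes arrays against each other, and the number of arrays limits their precision. A level of one gene cannot be set against that of another, since probe sets differ in brightness.

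Proteins of this family share short BCL2 homology (BH) segments. The anti-apoptotic members BCL2, BCL2L1 (BCL-XL), BCL2L2 (BCL-W), MCL1 and BCL2A1 (BFL-1) hold the other members in check by binding their BH3 segment. BAX and BAK1 form the pore that releases cytochrome c, and the BH3-only proteins BID, PMAIP1 (NOXA) and BBC3 relay stress signals to both sides. BCL2A1 is best known from blood cells and as a target of NF-kB. In lung cancer cells MCL1 and BCL2L1 are the members most often studied as survival factors.

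Promoters are printed for the genes that stood furthest apart and for BCL2L1, to show whether the letters of the NRF2 binding motif lie near the start of these genes. Besides BAX, BCL2L1 was the only member with the core of that motif in a window, so the 3 printed are no sample of the family. The sequences are RefSeq's on GRCh38.p14 and cover 250 bases before the annotated start and 50 bases from it on, in the direction of transcription. Capitals mark every match to 4 motifs searched on both strands: the core of the antioxidant response element (ARE, TGACNNNGC), the AP-1 site (TGANTCA), the composite ATF4 site (TGATGNAA) and the kappaB site. An ARE core can overlap an AP-1 site. The 3 promoters were:
BCL2A1, chr15:79971147-79971446, minus strand: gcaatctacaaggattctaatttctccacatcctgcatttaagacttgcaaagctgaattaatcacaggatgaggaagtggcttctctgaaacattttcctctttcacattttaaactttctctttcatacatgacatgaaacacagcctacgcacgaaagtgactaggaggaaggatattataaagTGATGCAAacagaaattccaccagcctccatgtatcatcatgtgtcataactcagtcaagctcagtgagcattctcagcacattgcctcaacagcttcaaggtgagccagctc
BAX, chr19:48954625-48954924, plus strand: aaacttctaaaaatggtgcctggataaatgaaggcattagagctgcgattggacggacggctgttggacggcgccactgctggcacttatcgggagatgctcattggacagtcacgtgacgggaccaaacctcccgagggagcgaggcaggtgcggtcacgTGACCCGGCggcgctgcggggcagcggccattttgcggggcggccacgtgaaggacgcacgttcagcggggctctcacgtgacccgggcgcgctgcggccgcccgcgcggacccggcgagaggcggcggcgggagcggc
BCL2L1, chr20:31723914-31724213, minus strand: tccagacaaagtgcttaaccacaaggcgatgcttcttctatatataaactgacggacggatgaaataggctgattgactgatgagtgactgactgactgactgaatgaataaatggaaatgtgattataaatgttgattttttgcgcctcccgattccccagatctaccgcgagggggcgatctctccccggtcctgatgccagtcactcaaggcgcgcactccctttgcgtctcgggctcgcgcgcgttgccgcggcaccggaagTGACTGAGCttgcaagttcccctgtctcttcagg

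The BCL2A1 window held no ARE core, AP-1 or kappaB match and 1 match to the ATF4 composite, which begins 63 bases before the start. The BAX window held 1 ARE core, 89 bases before the start, and no match to the other motifs. This BCL2L1 window held 1 ARE core that begins 16 bases after the start, while the second annotated BCL2L1 start had no match to any of the 4 motifs. Among all 35116 promoters of the table, 13.3% held an ARE core, 7.71% an AP-1 site, 3.62% the ATF4 composite and 11.3% a kappaB site. Of the members 8 had an entry, with 13 windows, and MCL1 and BCL2L2 had none. The windows of BAK1, BCL2, BID and PMAIP1 held none of the motifs, and that of BBC3 held 1 AP-1 site, 113 bases before the start. A match is a stretch of letters and not a bound site, and a window without one says nothing of more distant sequence.

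The siRNA target served as a check of the labels. NFE2L2, the gene of NRF2, was 1.84 ± 0.06 (SE, log2) lower after Nrf2 siRNA than after the non-targeting siRNA (limma adjusted p = 1.92e-10), and its 3 probe sets ranged from -1.84 to -0.11. Pairs of arrays correlated across probe sets, which are not replicates, at r = 0.9979 to 0.9987 inside a group and 0.984 to 0.9937 outside it. The epithelial markers KRT8, KRT18, KRT19, EPCAM and CDH1 had group means from 8.63 to 14.99, and the immune markers PTPRC, CD3E, MS4A1, CD14 and ITGAM from 7.13 to 8.83, against a median of 7.54 over all values. Averaged over its 5 genes, the immune list lay at 7.55 to 7.65 on the mock arrays, 7.65 to 7.74 on the NS siRNA arrays and 7.78 to 7.82 on the Nrf2 siRNA arrays. Of its genes 1 was called higher and 1 lower in Nrf2 siRNA against NS siRNA: CD14 at 0.96 and ITGAM at -0.28 (limma adjusted p = 8.03e-08 and 0.00567). ITGAM had means of 7.41 in mock, 7.59 in NS siRNA and 7.31 after Nrf2 siRNA, near the median of all values. This was the order of groups of BCL2A1, also a gene of blood cells, over a far smaller span. Relative to mock ITGAM was at 0.18 in NS siRNA and -0.10 after Nrf2 siRNA, neither called (limma adjusted p = 0.0749 and 0.33). The CD3E means of 8.40, 8.49 and 8.39 had the same order, with no call in any comparison. CD14 had another order, and PTPRC, CD3E and MS4A1 were not called against NS siRNA (limma adjusted p = 0.973, 0.174 and 0.341). The part of immune markers in the BCL2A1 values was not tested. The epithelial list averaged 11.46 to 11.52, 11.91 to 11.94 and 12.28 to 12.43 on the same groups of arrays, the order that BCL2L1 and PMAIP1 had. Its genes differed in size: against NS siRNA KRT19 was at 1.15, and EPCAM and CDH1 were each at 0.48. KRT8, at 0.06, and KRT18, at 0.05, were not called against NS siRNA (limma adjusted p = 0.276 and 0.331). The part of this shift in the BCL2L1 and PMAIP1 values was not tested. The RNA is from whole cultures, so a change in the share of cells that express a gene and a change in RNA per cell cannot be told apart.

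Across the family, the 2 siRNA treatments gave different patterns in different members. BCL2A1 and BAX were highest in NS siRNA, between them in mock and lowest after Nrf2 siRNA, whereas MCL1 ran the opposite way. BCL2L1 and PMAIP1 were lowest in mock, higher in NS siRNA and highest after Nrf2 siRNA. BCL2, BCL2L2 and BAK1 differed little between Nrf2 siRNA and NS siRNA. Each gene is represented below by its brightest probe set, and its other probe sets follow.

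**Figure D1:**
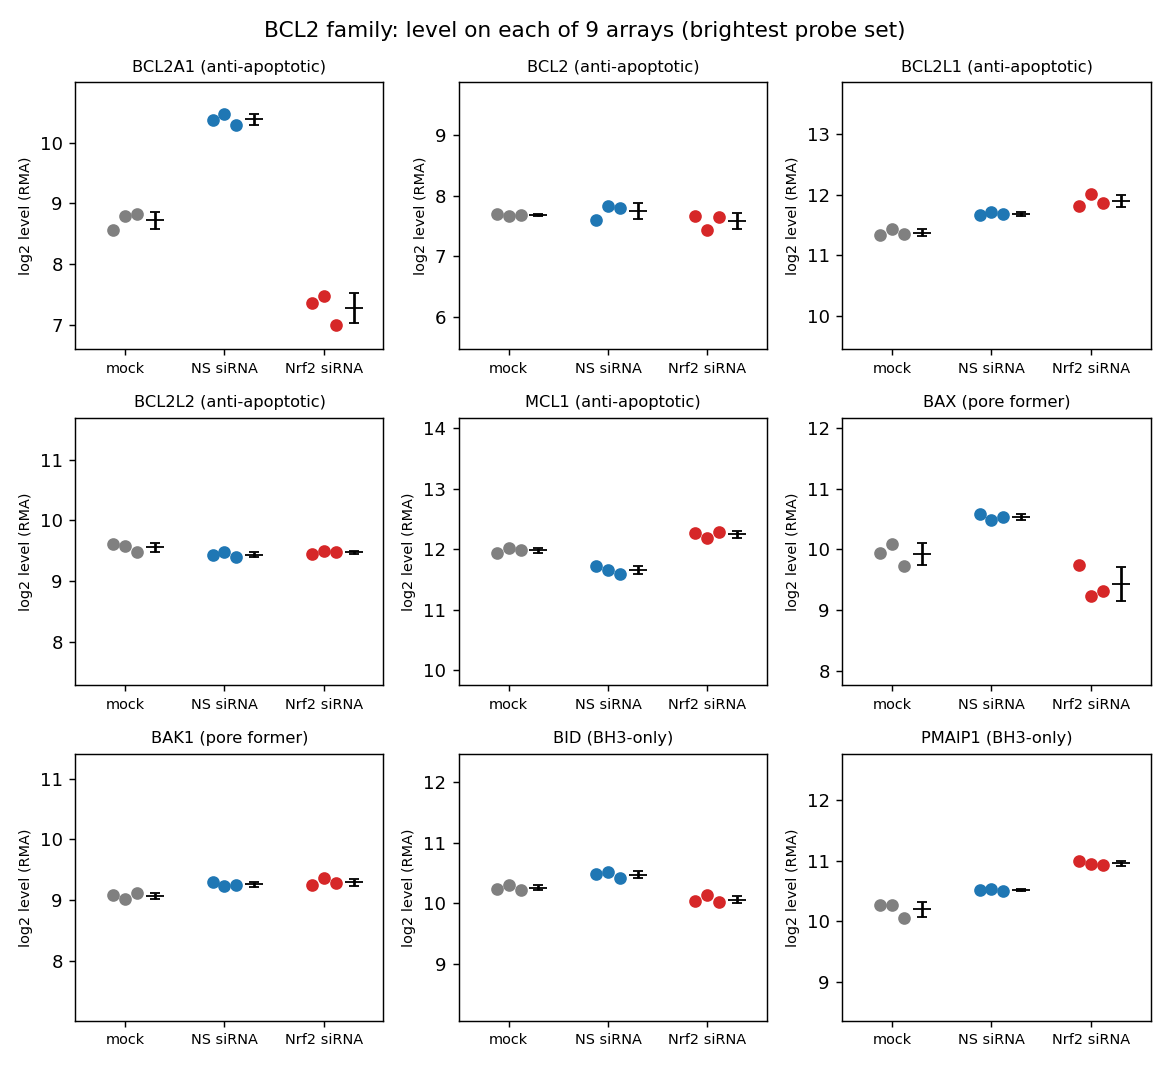
Log2 level of the brightest probe set of each of the 9 genes on every array, in mock, NS siRNA and Nrf2 siRNA; each point is an array, and the bar beside the points is mean ± SD (n = 3). All panels span the same log2 range; BCL2A1 runs from 7.00 to 10.48, while BCL2L2 stays between 9.39 and 9.61.

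BCL2A1, which neutralizes BH3-only proteins, showed the widest spread of the family. It read 8.56, 8.79 and 8.82 on the mock arrays, 10.38, 10.48 and 10.30 on the NS siRNA arrays, and 7.35, 7.48 and 7.00 on the Nrf2 siRNA arrays. No array of one group reached the range of another. The difference between Nrf2 siRNA and NS siRNA was -3.11 ± 0.11 (SE of the limma model, log2), which left 11.6% of the NS siRNA level. Against mock it was -1.45 ± 0.11, which left 36.6%. NS siRNA by itself stood 1.66 ± 0.11 above mock, a 3.16-fold higher level, so the size of the difference depended on the control used. After Nrf2 siRNA the gene lay at 7.28 ± 0.25 (SD, n = 3), below the median of all values, where an array reading can understate a fold. BCL2A1 had 1 probe set, and no other probe set can be compared with it.

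BCL2L1, an anti-apoptotic relative of BCL2, read 11.33, 11.44 and 11.35 in mock. It read 11.66, 11.72 and 11.68 in NS siRNA and 11.81, 12.01 and 11.87 after Nrf2 siRNA. The groups were stacked without overlap, with Nrf2 siRNA on top. Nrf2 siRNA differed from NS siRNA by 0.21 ± 0.06 (SE, log2) and from mock by 0.53 ± 0.06, a 1.44-fold higher level, and NS siRNA from mock by 0.32 ± 0.06. Of the other 3 probe sets, a pair gave 0.32 ± 0.06 and 0.33 ± 0.06 against NS siRNA. The dimmest went the other way at -0.27 ± 0.05: it read 8.52, 8.46 and 8.50 in NS siRNA and 8.19, 8.19 and 8.30 after Nrf2 siRNA. The probe sets of BCL2L1 thus differed in sign against NS siRNA, and which transcript each reads was not tested.

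MCL1, a short-lived anti-apoptotic protein that binds BAK1 and PMAIP1, read 11.94, 12.02 and 11.99 in mock. It was lower in NS siRNA, at 11.72, 11.65 and 11.59, and higher after Nrf2 siRNA, at 12.26, 12.18 and 12.29. The 3 groups did not overlap. Nrf2 siRNA stood 0.59 ± 0.05 (SE, log2) above NS siRNA, 1.51-fold, and 0.26 ± 0.05 above mock, while NS siRNA stood at -0.33 ± 0.05 relative to mock. MCL1 had 6 probe sets. All 6 had a positive difference between Nrf2 siRNA and NS siRNA, from 0.13 to 0.59, and a negative one between NS siRNA and mock, from -0.47 to -0.20. Against mock they ran from -0.07 to 0.26, so the excess over mock rested on the probe set used. The mean of the 6 probe sets gave 0.11 against mock.

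BCL2, the founding member, was dim on these arrays. Its brightest probe set read 7.70, 7.67 and 7.68 in mock, 7.59, 7.83 and 7.80 in NS siRNA, and 7.66, 7.43 and 7.65 after Nrf2 siRNA. The NS siRNA and Nrf2 siRNA arrays overlapped, and the difference was -0.16 ± 0.07 (SE, log2). The 4 BCL2 probe sets gave differences from -0.16 to -0.05 against NS siRNA and from -0.37 to 0.10 against mock. The -0.37 came from the dimmest of them, with means of 5.97 ± 0.13 (SD, n = 3) in mock and 5.60 ± 0.08 after Nrf2 siRNA. In all, 4 of the 25 probe sets of the family had a mean below the median of all values, and no detection call was used.

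BCL2L2, which acts like BCL2L1, had the narrowest span of group means among the brightest probe sets, 9.43 to 9.55. It read 9.61, 9.58 and 9.47 in mock, 9.43, 9.47 and 9.39 in NS siRNA, and 9.44, 9.50 and 9.47 after Nrf2 siRNA. The difference between the siRNAs was 0.04 ± 0.05 (SE, log2), with overlapping arrays. Its other probe set, at a mean of 6.98 in NS siRNA and 6.87 after Nrf2 siRNA, gave -0.11 ± 0.06.

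Of the pore formers, BAX differed between the siRNAs by more than its replicates did, and BAK1 did not. BAX read 9.94, 10.09 and 9.73 in mock, 10.59, 10.49 and 10.54 in NS siRNA, and 9.75, 9.23 and 9.31 after Nrf2 siRNA. The Nrf2 siRNA arrays all lay below the NS siRNA arrays, but replicate 1 overlapped the mock range. The difference was -1.11 ± 0.12 (SE, log2) against NS siRNA, which left 46.4%, and -0.49 ± 0.12 against mock, while NS siRNA stood 0.62 ± 0.12 above mock. The other BAX probe set read 9.62, 9.62 and 9.42 in mock, 10.18, 10.13 and 10.10 in NS siRNA, and 9.24, 8.92 and 8.87 after Nrf2 siRNA. On it the 3 groups were separate, with differences of -1.13 ± 0.09 against NS siRNA and -0.54 ± 0.09 against mock. Both BAX probe sets therefore had the same order of groups as BCL2A1, at a smaller size.

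BAK1, which resides in the outer mitochondrial membrane, read 9.09, 9.01 and 9.11 in mock. It read 9.30, 9.23 and 9.25 in NS siRNA and 9.25, 9.36 and 9.28 after Nrf2 siRNA. The siRNA groups overlapped and differed by 0.03 ± 0.05 (SE, log2), and both lay above mock, by 0.19 ± 0.05 and 0.23 ± 0.05. BAK1 and BAX, which can stand in for each other in pore formation, thus had different profiles here, a difference that was not tested.

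Among the BH3-only genes, PMAIP1, a partner of MCL1, was highest after Nrf2 siRNA. It read 10.26, 10.27 and 10.06 in mock, 10.52, 10.54 and 10.50 in NS siRNA, and 11.00, 10.94 and 10.93 after Nrf2 siRNA. The 3 groups did not overlap. Nrf2 siRNA stood 0.44 ± 0.06 (SE, log2) above NS siRNA and 0.76 ± 0.06 above mock, a 1.69-fold higher level. The other probe set gave 0.42 ± 0.06 and 0.87 ± 0.06. PMAIP1 and BAX, both pro-apoptotic, had opposite signs against each control.

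BID, which caspase-8 cleaves to link death receptors with mitochondria, gave a different answer on each probe set. The brightest read 10.24, 10.30 and 10.22 in mock, 10.48, 10.52 and 10.41 in NS siRNA, and 10.03, 10.13 and 10.02 after Nrf2 siRNA, a difference of -0.41 ± 0.05 (SE, log2) between the siRNAs. The next read 9.53, 9.69 and 9.50 in NS siRNA and 9.89, 9.89 and 9.81 after Nrf2 siRNA, a difference of 0.29 ± 0.06. The last gave 0.02 ± 0.05. The mean of the 3 was -0.03, so no direction can be given for BID as a gene.

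**Figure D2:**
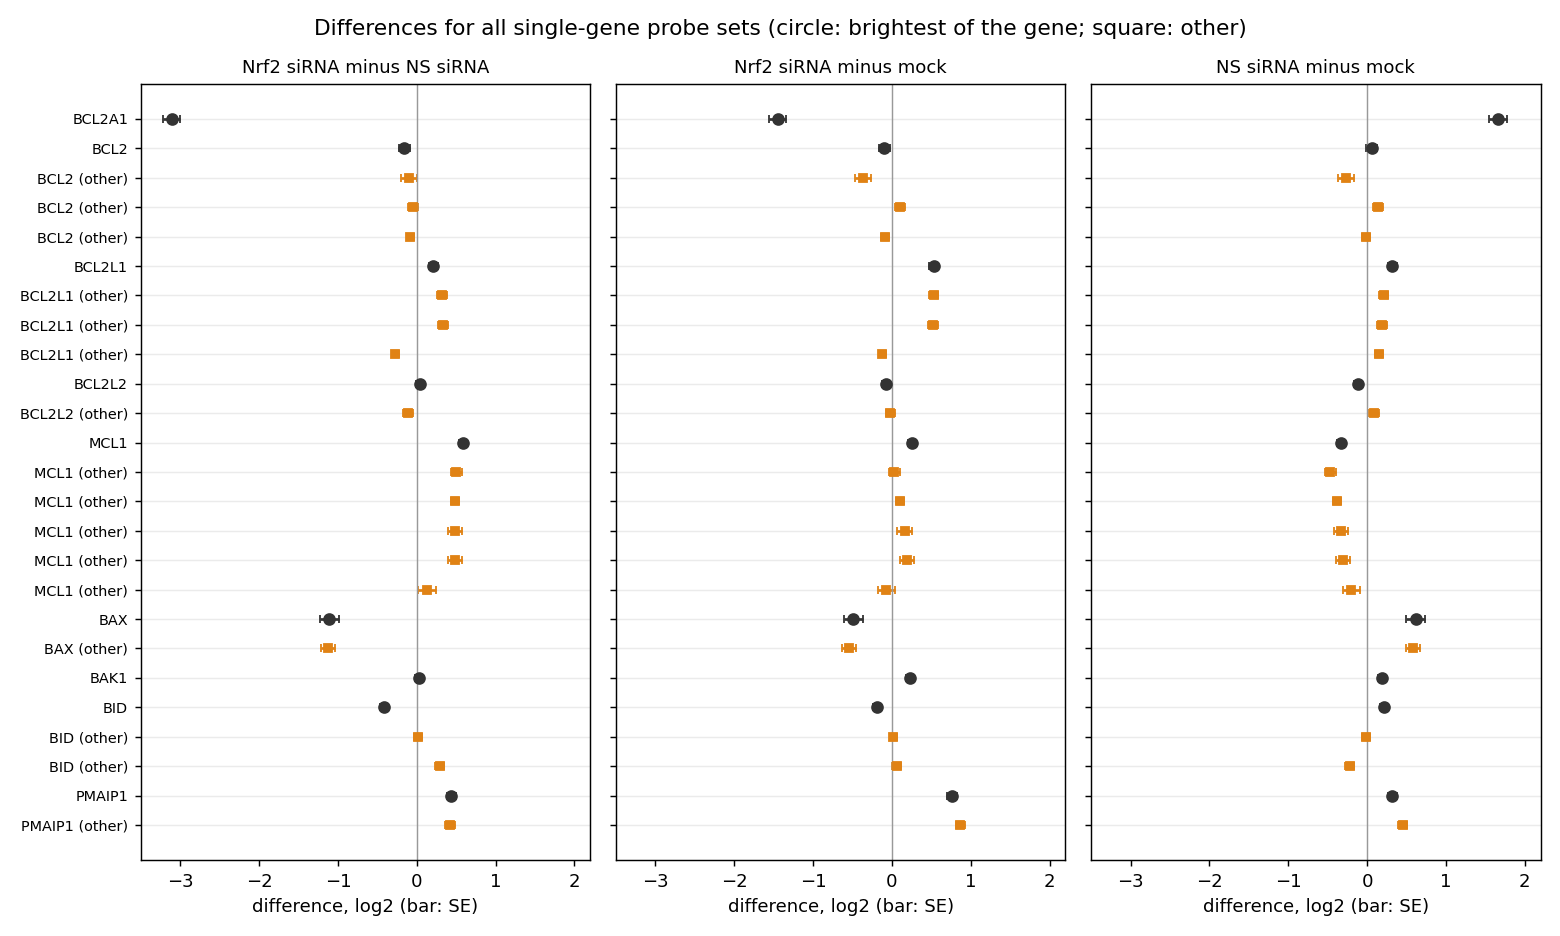
Difference on the log2 scale (horizontal axis, bar = SE of the limma model) for all 25 probe sets of the 9 genes in the 3 comparisons. Circles are the brightest probe set of a gene and squares the others; BCL2A1 lies at -3.11, -1.45 and 1.66, both BAX probe sets lie on the same side as BCL2A1 in each panel, and the 3 BID probe sets disagree.

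Counted with the brightest probe set and the limma fit over all 19775 genes (adjusted p below 0.05), 3 of the 9 genes were called higher and 3 lower after Nrf2 siRNA than in NS siRNA. Over all genes 21.0% were called higher and 26.6% lower. BCL2L1, MCL1 and PMAIP1 were the higher ones and BCL2A1, BAX and BID the lower ones, with anti-apoptotic and pro-apoptotic genes in each direction. BID is counted here and below by its brightest probe set alone, and its 3 probe sets disagreed. Against mock 4 were higher (the same 3 and BAK1) and 3 lower (BCL2A1, BAX and BID), beside 16.4% and 16.7% of all genes. In NS siRNA against mock 6 were higher (BCL2A1, BCL2L1, BAX, BAK1, BID and PMAIP1) and 1 lower (MCL1), beside 15.6% and 15.2% of all genes. Since the genes were picked with these comparisons known, nothing is read from these counts. The median difference over the 9 genes was 0.03 against NS siRNA, -0.08 against mock and 0.22 for NS siRNA against mock; over all genes it was -0.05, -0.02 and 0.03. The comparisons share arrays, those of Nrf2 siRNA in the first pair and those of each control in the others, and are not independent of each other.

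Other genes of the same death pathway were taken from 6 lists, 66 genes, of which 61 had a value here. Of the 61, 14 rose and 22 fell in Nrf2 siRNA against NS siRNA (limma adjusted p below 0.05), with a median difference of -0.07. The shares of all genes called are those given above for the family. For each list below, set against NS siRNA, they are 21.0% higher and 26.6% lower. Against mock 21 were higher and 17 lower, with a median of 0.00, and in NS siRNA against mock 22 were higher and 8 lower, with a median of 0.07. The other 5 were not analysed here.

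Among 13 further BCL2 relatives, 1 rose and 5 fell against NS siRNA. BCL2L11, whose product BIM is a potent BH3-only activator, fell by 0.51 ± 0.06 (SE, log2, limma adjusted p = 1.2e-05), and all 7 of its probe sets were lower. It was also lower than mock, at -0.60 ± 0.06 (limma adjusted p = 5.28e-06). BCL2L12 fell by 0.51 ± 0.05 (limma adjusted p = 4.68e-06), BNIP3, a mitochondrial BH3-like protein of mitophagy, by 0.41 ± 0.05, and BCL2L13 by 0.36 ± 0.05. The relative that rose was BCL2L15 (0.36, limma adjusted p = 9.03e-05), named after its value was seen. BAD, at 0.15, and HRK, at -0.13, did not pass (limma adjusted p = 0.0513 and 0.167). BNIP3L did not pass on its brightest probe set (0.11, limma adjusted p = 0.0863). Its 2 probe sets ranged from 0.11 to 1.31, and from -1.99 to -0.34 in NS siRNA against mock.

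Downstream of the pore, 2 of 9 apoptosome and caspase genes rose and 3 fell against NS siRNA. CASP9, the initiator caspase of the apoptosome, rose by 0.43 ± 0.05 (SE, log2, limma adjusted p = 9.45e-06), yet stood at -0.02 against mock, because NS siRNA was 0.45 below mock. CYCS, cytochrome c, fell by 0.28 ± 0.04 (limma adjusted p = 7.65e-05). CASP2 rose by 0.34 ± 0.04 on its brightest probe set, with 5 of 7 probe sets positive, and with the mean of them at 0.08 it did not pass (limma adjusted p = 0.173). CASP8, the caspase that cleaves BID, fell by 0.22 ± 0.06 (limma adjusted p = 0.00685), and did not pass on its most variable probe set (limma adjusted p = 0.228). Against mock CASP8 was at -0.10 and did not pass (limma adjusted p = 0.232).

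Of 7 inhibitor of apoptosis genes and their antagonists, 2 rose and 1 fell. HTRA2, a mitochondrial protease that antagonizes these inhibitors, fell by 0.33 ± 0.06 (SE, log2, limma adjusted p = 0.000601) and was at -0.49 ± 0.06 against mock. BIRC6 rose by 0.22 ± 0.04 and DIABLO, the antagonist SMAC, by 0.17 ± 0.05 (limma adjusted p = 0.0014 and 0.00874). Against mock BIRC6 was at 0.15, while DIABLO was at -0.05 and did not pass (limma adjusted p = 0.019 and 0.449). XIAP, the direct caspase inhibitor, was at 0.08 and did not pass (limma adjusted p = 0.202). Against mock XIAP was at 0.15 (limma adjusted p = 0.0336), a call lost in several alternatives. All 7 of its probe sets were positive against mock, from 0.09 to 0.52.

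In the death receptor pathway 1 of 9 genes rose and 5 fell against NS siRNA. CFLAR, 1 of the 5, fell by 0.21 on its brightest probe set (limma adjusted p = 0.00182). Its 14 probe sets ranged from -0.32 to 0.91, with 10 negative and 2 past the threshold in the other direction. TNFRSF10B, also 1 of the 5, fell by 0.25 (limma adjusted p = 0.000194). Both stood above mock, CFLAR at 0.16 and TNFRSF10B at 0.41 (limma adjusted p = 0.015 and 5.49e-06). The 4 TNFRSF10B probe sets ranged from -0.12 to 0.41 against mock. TNFRSF10A, the TRAIL receptor DR4, fell by 1.06 ± 0.06 (SE, log2, limma adjusted p = 2.99e-08), from 10.05 ± 0.02 (SD, n = 3) in NS siRNA to 8.99 ± 0.04. Mock stood at 9.17 ± 0.14, near the Nrf2 siRNA level. The difference from mock was -0.18 with overlapping arrays (limma adjusted p = 0.0485), a call lost in many alternatives. TNFRSF10D, a TRAIL decoy receptor, fell by 0.49 ± 0.05, and the adaptor TRADD by 0.39 ± 0.05 (limma adjusted p = 2.38e-06 and 5.51e-05). Against mock TNFRSF10D was at -0.12 and did not pass, while TRADD was at -0.39 (limma adjusted p = 0.079 and 0.000104). NS siRNA stood 0.37 above mock for TNFRSF10D. FAS, the receptor of FAS ligand, rose by 0.46 ± 0.06 (limma adjusted p = 2.14e-05) and stood 1.01 ± 0.06 above mock. Its order of groups, mock lowest and Nrf2 siRNA highest, was that of PMAIP1 and BCL2L1.

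Of 10 binding partners and turnover genes 5 rose and 4 fell against NS siRNA. VDAC2, the outer membrane channel that recruits BAK1 and BAX, fell by 0.40 ± 0.05 (SE, log2, limma adjusted p = 1.25e-05), and VDAC1 by 0.39 ± 0.06. Against mock VDAC2 was at -0.23, while VDAC1 was at -0.15 and did not pass (limma adjusted p = 0.0021 and 0.0648). TMBIM6, the BAX inhibitor of the endoplasmic reticulum, rose by 0.37 ± 0.04 (limma adjusted p = 1.07e-05) and the BCL2 partner BAG1 by 0.39 ± 0.05. The size depended on the probe set, from 0.37 to 1.06 for TMBIM6 and from 0.24 to 1.31 for BAG1. Genes of ubiquitin turnover were named after their values were seen. USP9X, which removes ubiquitin from MCL1, rose by 0.26 ± 0.04 (limma adjusted p = 0.000222), and its 4 probe sets ranged from 0.04 to 0.77. Of the ubiquitin ligases, HUWE1 rose by 0.18 and FBXW7 by 0.34, while MARCHF5 fell by 0.16 (limma adjusted p = 0.00252, 0.000137 and 0.00688). HUWE1 had 4 of 5 probe sets positive, from -0.07 to 0.42, and FBXW7 3 of 4, from -0.02 to 0.57. MARCHF5 was at -0.01 against mock and did not pass there (limma adjusted p = 0.917).

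Of 13 measured transcription factors known to act on these genes, 3 rose and 4 fell against NS siRNA. MYC fell by 0.88 ± 0.04 (SE, log2, limma adjusted p = 4.16e-09) and stood at -0.67 ± 0.04 against mock. FOXO3, an activator of BCL2L11 in many cells, rose by 0.79 ± 0.04 (limma adjusted p = 1.61e-08) on its brightest probe set. Its 4 probe sets ranged from -0.01 to 0.79, and 3 of them were positive. Of the NF-kB subunits, RELB fell by 0.59 ± 0.07 and REL rose by 0.50 ± 0.06 (limma adjusted p = 1.38e-05 and 3.13e-05). RELA, at -0.05, and NFKB1, at 0.08, did not pass (limma adjusted p = 0.339 and 0.279). Relative to mock, RELA was at 0.08 and did not pass, while NFKB1 was at 0.23 (limma adjusted p = 0.172 and 0.00577). ATF4 was at -0.23 and its partner gene DDIT3 at 0.13 (limma adjusted p = 0.000443 and 0.108). Against mock ATF4 was at 0.03 and DDIT3 at 0.15, and neither passed (limma adjusted p = 0.622 and 0.0794).

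**Figure D3:**
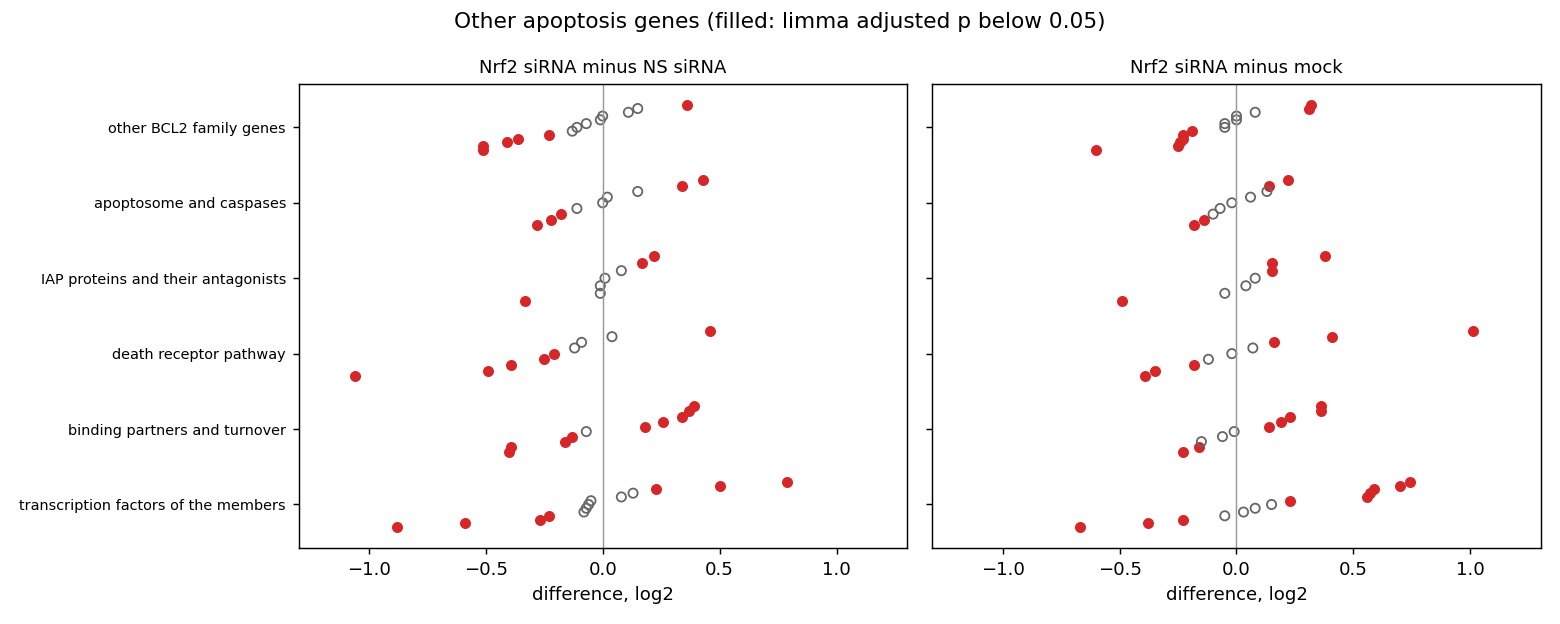
Log2 difference (horizontal axis) of each measured gene of the 6 pathway lists in Nrf2 siRNA against NS siRNA (left) and against mock (right); a point is a gene, filled where the limma adjusted p is below 0.05. Points lie on both sides of 0 in every list; the outermost on the left panel are TNFRSF10A at -1.06 and FOXO3 at 0.79.

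The genes most like BCL2A1 were looked for by the root mean square difference between profiles over the 9 arrays, after subtracting each gene's own mean. The 5 nearest of 19775 were HKDC1 (0.45), ACKR3 (0.52), GCLC (0.52), COXFA4L3 (0.53) and TNFRSF9 (0.55), in log2 units. HKDC1, a hexokinase-like gene, had means of 9.46, 10.72 and 8.64 in mock, NS siRNA and Nrf2 siRNA, and TNFRSF9, the receptor 4-1BB of activated T cells, 8.02, 9.40 and 7.55. GCLC, the catalytic subunit of glutamate-cysteine ligase and a known NRF2 target, had 12.22, 12.72 and 10.50. The 5 differ in how much of their range lay between the controls: relative to mock, COXFA4L3 was at 1.93 with NS siRNA and -0.23 with Nrf2 siRNA, whereas GCLC was at 0.50 and -1.72. These genes were picked for the likeness, so it is not tested, and the arrays they share with BCL2A1 are the same 9.

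**Figure D4:**
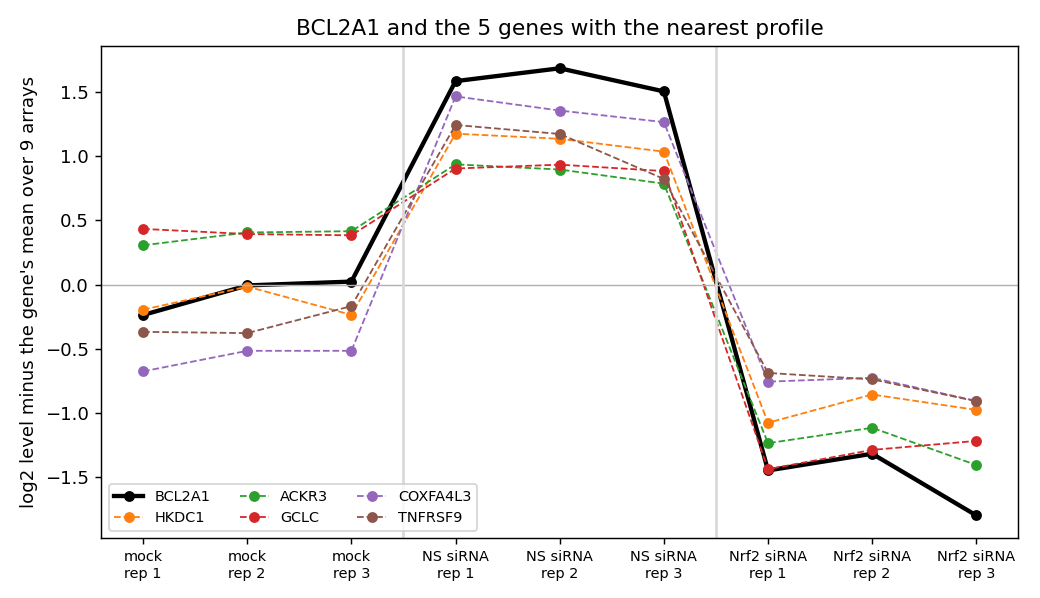
Log2 level minus the gene's mean over 9 arrays (vertical axis) on each array (horizontal axis, 3 replicates a group) for BCL2A1 (solid black) and the 5 nearest genes (dashed); lines only join the points of a gene, and replicates have no order. All 6 genes are highest in NS siRNA and lowest after Nrf2 siRNA, and the distance to BCL2A1 is 0.45 for HKDC1.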

How the data were processed

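RNA of 9 A549 cultures was read on an Affymetrix array 54675 probe sets wide. What was deposited is log2 levels from the authors' RMA run (named in the submitters' processing notes, without version or settings). No scaling was added. Probe sets naming exactly 1 gene (41091) were kept, with symbols updated through Entrez identifiers in RefSeq's GRCh38.p14 table (41037 matched). The probe set with the highest mean stood for a gene, which gave 19775 genes.

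A linear model with 3 group means was fitted over all 9 arrays with limma 3.58.1 in R 4.3.3 (lmFit, eBayes), with two-sided p-values, a Benjamini-Hochberg adjustment across 19775 genes and a threshold of 0.05. SEs of further probe sets came from the same model over 41091 probe sets. The script was tested on simulated data. Named genes were all members, NFE2L2, the 4 genes of each pathway list that ranked first by adjusted p (Nrf2 siRNA against NS siRNA), and the 5 genes nearest to BCL2A1. Others were added after their values were seen. The members and lists were chosen with earlier results of these data known. Motifs were searched and figures drawn in Python 3.11.15 with matplotlib 3.10.9. Alternatives were equal array medians, quantile normalization, a filter on dim genes, other choices of probe set, a variance trend, fits of 2 groups, the replicate number as a block, a threshold of 0.01 and leaving out each array.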

Additional observations from a re-analysis of the deposited data

How the results depend on the processing

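Counts of called genes stayed within 1.5 times the main count in each of the 18 alternatives, leaving out each array included. For the 9 family genes they ran from 5 to 7 against NS siRNA, 5 to 8 against mock and 6 to 8 for NS siRNA against mock, and for the 61 pathway genes from 33 to 40, 29 to 40 and 22 to 34. With the replicate number as a block, 6, 7 and 7 family genes and 37, 37 and 32 pathway genes were called. The numbers were not taken to pair the arrays, and whether they do was not settled. For this check each gene's group mean was subtracted, and the remaining deviations were correlated across genes between arrays of 2 groups. Same-numbered arrays gave r from -0.208 to 0.231 and differently numbered ones from -0.342 to 0.2. In 10 of 18 checks the best-correlated array of another group bore the same number. Averaging all probe sets per gene, BID was -0.01 (from 0.22) and CASP2 was 0.01 (from -0.20) in NS siRNA against mock. With the same averaging, BID (-0.03 and -0.04 against NS siRNA and mock) and MCL1 (0.11 against mock) lost their calls. BCL2 was called against NS siRNA without NS siRNA replicate 1 (-0.23) and against mock on its most variable probe set (-0.37). BCL2L2 was called against mock with quantile normalization (-0.11 after Nrf2 siRNA), and in NS siRNA against mock among brighter genes (-0.12) and without mock replicate 3 (-0.16). No other call of the family changed in these alternatives. Named genes outside the family gained or lost a call in 84 of 1620 combinations of comparison and alternative. The CASP2 change of sign is not counted there. Calls of TNFRSF10A, BIRC6 and XIAP against mock were among those lost. Dim probe sets had no background measure here, which limits BCL2A1 after Nrf2 siRNA and BCL2 throughout.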
